A study of Mus musculus with 6 samples.

Results

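Cxcl1, Lcn2 and Serpina3m are 3 secreted-protein genes of the inflammatory response that were measured on microarrays in quadriceps muscle of dystrophic mice. They are the rows bearing these symbols in a table of 60 probe sets that the authors deposited with gene names, 1 probe set per gene, out of 45101 probe sets in all. The table lists 60 of the 132 probe sets at least 2-fold apart between the 2 groups of mice, so the fold alone did not choose its rows. These genes were thus selected on the difference between groups, which is given below as a description without a test.

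Both groups were utrn+/-;mdx mice of the C57BL/10 strain, a model of Duchenne muscular dystrophy without dystrophin and with 1 of the 2 copies of the utrophin gene, whose product resembles dystrophin. The treated group was 3 mice given spironolactone at 37.5 mg/kg daily and lisinopril at 10 mg/kg daily in drinking water between 4 and 20 weeks of age. Spironolactone blocks the mineralocorticoid receptor, and lisinopril inhibits the enzyme that makes angiotensin II. The untreated group was 3 mice with plain drinking water. Every muscle was taken at 20 weeks, and each group held 2 males, mice 1 and 2, and 1 female, mouse 3. No mice with dystrophin were included, so the levels cannot be set against healthy muscle, and the treatment combines 2 drugs that were not given singly.

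CXCL1 is a chemokine that draws neutrophils out of blood through the receptor CXCR2, and its gene is switched on by NF-kB after signals such as interleukin 1 and TNF. Lipocalin 2, the product of Lcn2, is a secreted protein that binds bacterial iron-carrying siderophores; it is stored in neutrophil granules, is made by many tissues as an acute-phase protein, and is known as a gene that rises with mineralocorticoid receptor activation in the cardiovascular system. Serpina3m belongs to the mouse Serpina3 group of serine protease inhibitors, relatives of human antichymotrypsin, several of which are acute-phase proteins. In dystrophic muscle, repeated fibre damage draws in neutrophils and macrophages.

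The start regions of Cxcl1 and Lcn2 are shown because a promoter window was available for these 2 genes and not for Serpina3m. The binding of no factor was measured here, and the letters are not linked to which mice had high values. Each window runs 250 bases before to 50 bases after the transcription start in RefSeq, assembly GRCm38.p6, read along the gene's own strand; Cxcl1 is at chr5:90890995-90891294 on the plus strand and Lcn2 at chr2:32387690-32387989 on the minus strand. Capitals mark matches to the motifs searched.
Cxcl1: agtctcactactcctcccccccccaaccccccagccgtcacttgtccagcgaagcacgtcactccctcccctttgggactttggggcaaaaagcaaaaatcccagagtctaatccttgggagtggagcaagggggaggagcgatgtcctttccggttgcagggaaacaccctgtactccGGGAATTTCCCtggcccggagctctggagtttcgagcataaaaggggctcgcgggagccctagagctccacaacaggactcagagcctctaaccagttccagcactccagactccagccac
Lcn2: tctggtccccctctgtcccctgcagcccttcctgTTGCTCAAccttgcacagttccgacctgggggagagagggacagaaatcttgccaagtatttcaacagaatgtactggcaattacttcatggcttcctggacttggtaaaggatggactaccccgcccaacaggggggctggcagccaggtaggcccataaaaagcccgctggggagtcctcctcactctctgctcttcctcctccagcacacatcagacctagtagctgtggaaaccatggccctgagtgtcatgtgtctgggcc
The capitals in Cxcl1 are 2 overlapping matches to the NF-kB consensus, 1 on each strand, which together span bases -71 to -61 from the start. This consensus occurred in 4.51% of the 32851 windows in the table. The capitals in Lcn2 are a match to TTGCNNAA, the letters bound by C/EBP factors, at bases -216 to -209, and 10.8% of windows held such a match. On either strand, neither window held TTCNNNGAA, a STAT motif found in 8.3% of windows, or AGAACA, the hexamer to which corticosteroid receptors bind, found in 19%. Nor did they hold TGANTCA, an AP-1 motif, found in 7.81%, or TATAAA, the TATA box, found in 13.6%. The reference strain is C57BL/6J, and a match or its lack in these windows says nothing of whether a factor acts on the gene.

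Values are on the log2 scale, so that 1 unit is a 2-fold difference in signal, and the arrays of the 6 mice had medians of 6.07 to 6.13. Probe sets differ in how strongly they bind, so levels are compared between mice for 1 gene and not between genes. In whole muscle, fewer cells of a type and less RNA per cell cannot be told apart.

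Cxcl1, the neutrophil-attracting chemokine, was lower in every treated mouse than in any untreated mouse. Its signal was 5.30, 5.17 and 4.67 in treated mice 1, 2 and 3, against 6.04, 6.67 and 8.11 in untreated mice 1, 2 and 3. The treated values spanned 0.624 with the female lowest, while among untreated mice, which spanned 2.08, the female stood above the 2 males. Cxcl1 averaged 5.05 ± 0.330 in treated mice and 6.94 ± 1.06 in untreated mice (SD, n = 3 each), a log2 difference of -1.89 (SE 0.481), or 3.72-fold lower with treatment. In the authors' deposited table the geometric mean of the linear signal was 33.04 in treated and 123 in untreated mice. The treated values ranked at the 25.7th to 35.5th percentile of all probe sets on their arrays, against the 49.3rd to 76.3rd percentile in untreated mice. The treated signal is thus in the dimmer part of the scale, where RMA values are usually compressed and fold changes understated. Whether this altered the fold of Cxcl1 was not tested.

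Lcn2, which encodes lipocalin 2, also had no overlap between groups. Its signal was 6.74, 7.01 and 6.94 in treated mice 1, 2 and 3, against 8.41, 10.7 and 7.87 in untreated mice 1, 2 and 3. All 3 treated mice lay within 0.269 of each other, and a single untreated male, mouse 2, stood far above the other 5 animals. The means were 6.90 ± 0.139 in treated mice and 9.0 ± 1.51 in untreated mice (SD, n = 3 each), a log2 difference of -2.10 (SE 0.651), or 4.29-fold lower with treatment. In the authors' deposited table the geometric mean of the linear signal was 119 in treated and 512 in untreated mice. On the linear scale untreated mouse 2 alone gave 74.6% of the summed Lcn2 signal of the 3 untreated mice.

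Serpina3m, the protease inhibitor gene, differed less and its groups overlapped. Its signal was 5.83, 5.99 and 5.44 in treated mice 1, 2 and 3, against 5.69, 7.79 and 7.39 in untreated mice 1, 2 and 3. Untreated mice 2 and 3 were above all treated mice, and untreated mouse 1 was inside the treated range. The means were 5.76 ± 0.285 in treated mice and 6.96 ± 1.12 in untreated mice (SD, n = 3 each), a log2 difference of -1.20 (SE 0.497), or 2.30-fold lower with treatment. In the authors' deposited table the geometric mean of the linear signal was 54.0 in treated and 124 in untreated mice. The treated values ranked at the 38.8th to 48.5th percentile of all probe sets on their arrays, and untreated mouse 1 at the 43.4th. The limit given for dim Cxcl1 values therefore applies to these too. RefSeq places 11 Serpina3 genes side by side on chromosome 12, with Serpina3m between Serpina3k and Serpina3n. Which of these related transcripts bind the probe set was not examined, so the signal may not be from Serpina3m alone.

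**Figure D1:**
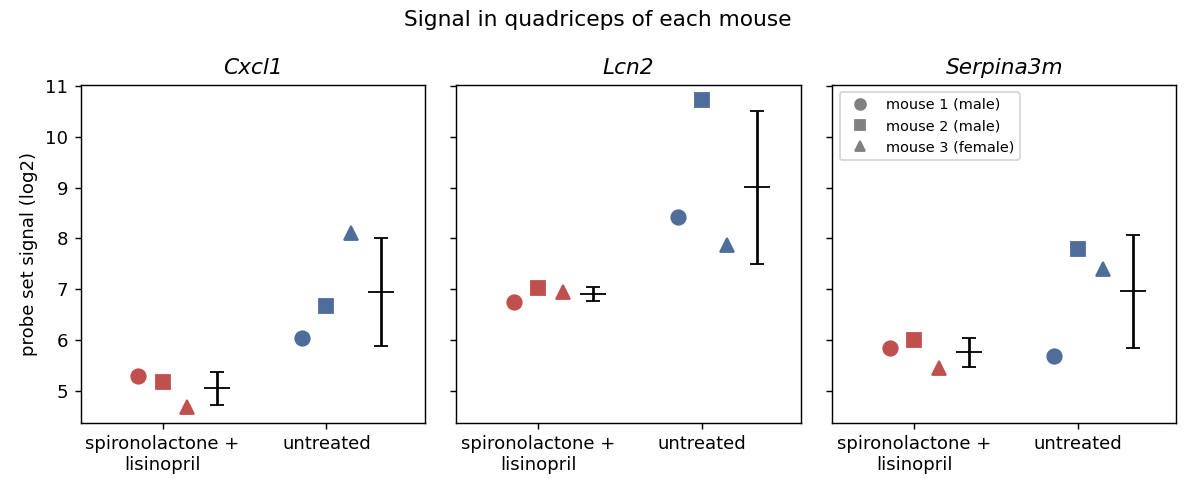
Log2 probe set signal (vertical axis) of Cxcl1, Lcn2 and Serpina3m in each of 3 treated and 3 untreated mice; symbols give the mouse number and sex, and the black bar gives the mean ± SD of the group. Treated values span 0.624 (Cxcl1), 0.269 (Lcn2) and 0.554 (Serpina3m) log2 units, and untreated values span 2.08 (Cxcl1), 2.84 (Lcn2) and 2.10 (Serpina3m).

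These differences are those by which the genes were listed. Among the 28 table rows with lower means in treated mice, Lcn2 had the 5th, Cxcl1 the 6th and Serpina3m the 17th largest fold difference. The smallest fold in the table was 2.01, and the largest below 2-fold among probe sets at an unadjusted limma p under 0.05 was 1.99. Groups that did not overlap, with the treated mice lower, were found for 2 of the 3 genes and for 5.22% of all 45037 probe sets that are not controls, and nothing is read from this because the same contrast chose the genes. Across all probe sets limma called 0 for treatment at an adjusted p of 0.05 (0% of those tested), an ordinary analysis of variance called 1, and 0.153% differed 2-fold or more at an unadjusted p under 0.05. All 3 genes have a false discovery rate of 0.601 in the authors' deposited table.

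The untreated mice with high values were not the same for the 3 genes. For Cxcl1 the order was mouse 3, mouse 2, mouse 1, for Lcn2 it was mouse 2, mouse 1, mouse 3, and for Serpina3m it was mouse 2, mouse 3, mouse 1. The female, mouse 3, thus had the highest Cxcl1 and the lowest Lcn2 of the untreated group.

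Set against the treated mean, the Cxcl1 signal of untreated mice 1, 2 and 3 was 1.99-fold, 3.08-fold and 8.38-fold higher. The Lcn2 signal of these mice was 2.85-fold, 14.1-fold and 1.97-fold higher. Their Serpina3m signal was 0.954, 4.09 and 3.11 times the treated mean; these folds are against the geometric mean of treated mice. Untreated mouse 2 was therefore at least 3-fold above the treated mean for every gene, mouse 3 for Cxcl1 and Serpina3m, and mouse 1 for none.

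**Figure D2:**
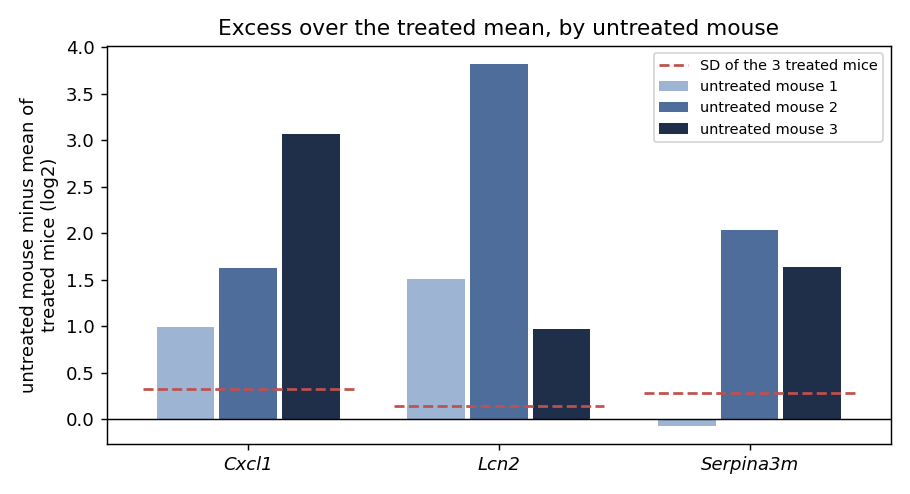
Log2 signal of each untreated mouse minus the mean of the 3 treated mice, for each gene; the dashed line marks the SD of the treated mice. The tallest bar is that of mouse 3 for Cxcl1 (3.07) and of mouse 2 for Lcn2 (3.82) and Serpina3m (2.03), while mouse 1 is at -0.068 for Serpina3m.

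The fold differences moved when single mice were left out. Without untreated mouse 2, Lcn2 was 2.37-fold lower in treated mice, and without untreated mouse 3, Cxcl1 was 2.47-fold lower. Serpina3m was 3.57-fold lower without untreated mouse 1, and its difference fell under 2-fold without untreated mouse 2 (1.72-fold) or untreated mouse 3 (1.97-fold). Array weights from limma, which count an array less the further its values fall from its group means, gave 6.98-fold for Lcn2, 3.78-fold for Cxcl1 and 3.15-fold for Serpina3m.

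Array quality measures also differed among mice. The 3'-minus-5' log2 signal of the poly-A spike controls, RNAs added before labelling, was 1.32, 1.52 and 1.53 on the arrays of treated mice 1, 2 and 3 and 1.44, 1.69 and 1.76 on those of untreated mice 1, 2 and 3. The same difference for Gapdh, an RNA of the muscle itself, was 0.164, 0.241 and 0.187 in treated mice 1, 2 and 3 and 0.217, 0.523 and 0.591 in untreated mice 1, 2 and 3. The 2 untreated mice with high Serpina3m signal were thus those with the highest spike and Gapdh values; the part of the Gapdh difference in the result was not tested. With the spike value as a term Serpina3m was 1.45-fold lower in treated mice, Cxcl1 2.59-fold and Lcn2 3.75-fold. The spike value was itself higher in untreated mice 2 and 3 than in any treated mouse. The term can therefore take up part of the treatment difference, and the 2 cannot be told apart. The array of untreated mouse 3, where Cxcl1 was highest, correlated least with the others, at a mean of 0.983, against 0.988 to 0.992 for the rest.

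Spread within the untreated group was large for all 3 genes. Among all probe sets, the untreated SD ranked at the 99.9th percentile for Lcn2, the 99.6th for Serpina3m and the 99.5th for Cxcl1, where the median untreated SD was 0.147. In treated mice the SD ranked at the 58.2nd percentile for Lcn2, the 91.9th for Serpina3m and the 94.4th for Cxcl1, against a median of 0.121. The untreated SD was 10.9 times the treated SD for Lcn2, 3.92 times for Serpina3m and 3.23 times for Cxcl1, with a median ratio of 1.26 over all probe sets. A larger SD in untreated mice was shared by all 28 table rows with lower means in treated mice, against 60.6% of all probe sets, so it does not set these genes apart from the others listed. The spread values come from the mice that chose the genes and were not tested.

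**Figure D3:**
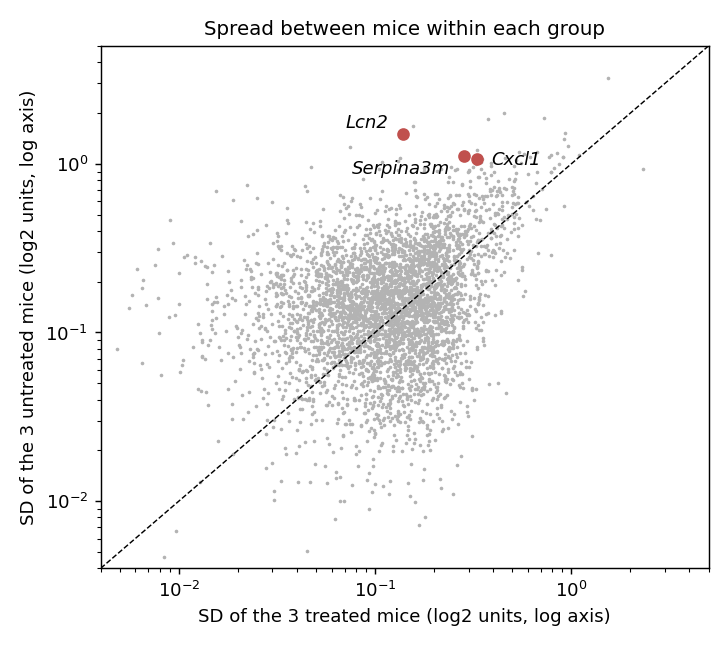
SD of the log2 signal among the 3 treated mice (horizontal, log axis) and the 3 untreated mice (vertical, log axis) for 4000 probe sets drawn at random (grey) and the 3 genes (red); the dashed line marks equal SDs. The 3 genes lie near the upper edge of the cloud, with untreated SDs of 1.51 for Lcn2, 1.12 for Serpina3m and 1.06 for Cxcl1.

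The labels also allow the difference between groups to be split by sex. The values within each sex average to the contrast on which the genes were listed, so their shared direction is a description. The gap between the sexes is tested below, but it draws on the same untreated values through which the genes were listed. Untreated mouse 3, the only untreated female, gave 62.3% of the summed linear Cxcl1 signal of the untreated mice. Cxcl1 was 10.9-fold lower in the treated female than in the untreated female (log2 difference -3.44), and 2.17-fold lower in the mean of the 2 treated males than in that of the 2 untreated males (-1.12). For Serpina3m the difference was 3.87-fold in females (-1.95) and 1.77-fold in males (-0.824). Lcn2 ran the other way, 1.91-fold lower in the treated female (-0.935) and 6.44-fold lower in treated males (-2.69).

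The treatment-by-sex interaction was tested with limma across all probe sets. For Cxcl1 the female difference minus the male one was -2.32 (SE 0.384, limma adjusted p = 0.539, unadjusted p = 0.000802). For Lcn2 it was 1.75 (SE 1.16, limma adjusted p = 1.00) and for Serpina3m -1.13 (SE 1.06, limma adjusted p = 1.00). Single untreated males set the last 2 values: without untreated mouse 1 the interaction was 2.91 for Lcn2 and -0.079 for Serpina3m, and without untreated mouse 2 it was 0.598 for Lcn2 and -2.18 for Serpina3m. None of the 3 genes passed, and limma called 0% of all probe sets, with 5.16% at an unadjusted p under 0.05. In simulated data with 1 female per group, this fit recovered 0% of 4-fold interactions and 60% of 8-fold ones. The fit could therefore hardly pass the threshold at the sizes of Lcn2 and Serpina3m, which are below 4-fold. The size for Cxcl1 lies between 4-fold and 8-fold and could be missed too. The miss thus does not show that the sexes were alike for any of the 3 genes. With the spike value as a term, which leaves 1 residual degree of freedom, 106 probe sets passed, among them Cxcl1 (-2.21, limma adjusted p = 0.0464). Each group holds 1 female, whose spread is assumed to be that of the males, and sex cannot be told apart from the individual animal. The untreated values that listed the 3 genes also enter this gap, so nothing is read from its p-values for them.

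**Figure D4:**
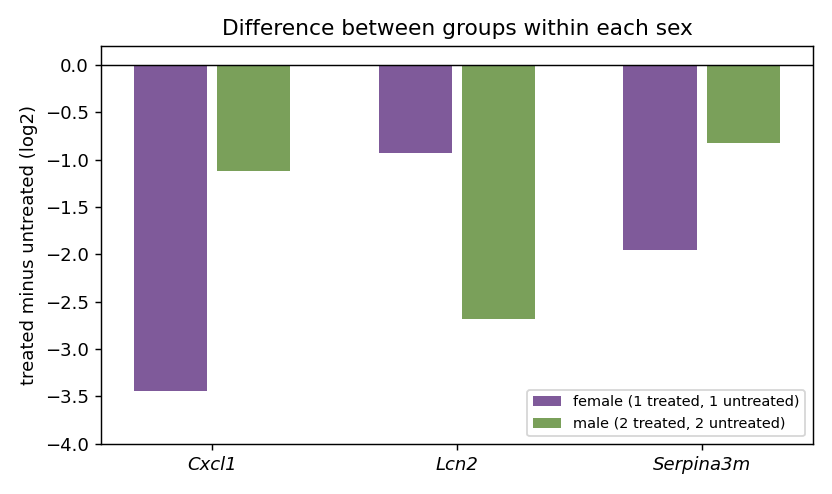
Treated minus untreated log2 difference within females (1 mouse against 1) and males (2 mice against 2) for each gene. Cxcl1 and Serpina3m show the longer bar in females (-3.44 and -1.95) and Lcn2 in males (-2.69); all 6 bars are below 0, as the selection of the genes favours.

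Averaged over both groups, no difference between females and males passed the test for these genes. Cxcl1 averaged 6.39 in the 2 females and 5.79 in the 4 males (difference 0.60, SE 0.478, limma adjusted p = 0.855). Lcn2 averaged 7.41 in females and 8.22 in males (-0.815, SE 0.645, limma adjusted p = 0.854). Serpina3m averaged 6.42 in females and 6.33 in males (0.092, SE 0.546, limma adjusted p = 0.982). Over all probe sets 0.00888% passed this test.

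Pattern likeness was measured by Pearson's r of deviations from the group mean over the 6 mice, given as a description; the 3 untreated mice, which spread more, weigh most in it. Between the 3 genes r was -0.383 for Cxcl1 and Lcn2, 0.482 for Lcn2 and Serpina3m and 0.623 for Cxcl1 and Serpina3m. Among the named probe sets, those most like Cxcl1 were Inhbb, an inhibin and activin subunit (r = 0.976), Mid1ip1, a regulator of lipogenesis (r = 0.911), and Ankrd1, a stretch-responsive ankyrin repeat protein of muscle (r = 0.903). Inhbb had 6.37, 6.22 and 6.16 in treated mice 1, 2 and 3 and 6.52, 7.09 and 8.50 in untreated mice 1, 2 and 3, so that it too was highest in the untreated female.

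For Serpina3m the nearest were both Ankrd1 probe sets (r = 0.847 and 0.845) and Prg4, which encodes the lubricating proteoglycan lubricin (r = 0.826). Prg4 had 9.81, 10.3 and 10.6 in treated mice 1, 2 and 3 and 10.4, 12.4 and 12.9 in untreated mice 1, 2 and 3. As with Serpina3m, untreated mouse 1 was within the treated range and mice 2 and 3 were above it.

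The probe sets most like Lcn2 were Arrdc2, an arrestin domain gene (r = 0.866), Mbd2, a methyl-CpG binding protein (r = 0.831), and Lmod2, a leiomodin of the thin filament (r = 0.827). Arrdc2 and Mbd2 had higher means in treated mice (log2 differences 2.09 and 1.91), the opposite of Lcn2, and Lmod2 had a lower mean (-1.23). Lmod2 had 10.2, 10.3 and 10.9 in treated mice 1, 2 and 3 and 11.3, 12.4 and 11.4 in untreated mice 1, 2 and 3.

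Most rows listed as lower were highest in the same untreated mouse as Cxcl1. Of the 28 rows with lower means in treated mice, 23 were highest in untreated mouse 3, among them Cxcl1. Another 4 were highest in untreated mouse 2, namely Lcn2, Serpina3m, Npr3, the natriuretic peptide clearance receptor, and Lmod2, and 1, Sik1, a salt-inducible kinase, was highest in mouse 1. Npr3 and Sik1 are named after their values were seen, to complete these counts. Among all 85 probe sets at least 2-fold lower in treated mice, named or not, 72.9% were highest in untreated mouse 3, 25.9% in mouse 2 and 1.18% in mouse 1. Over all probe sets, 32.9% were highest in untreated mouse 3, 28.5% in mouse 2 and 38.6% in mouse 1. The 28 rows and the 85 probe sets were chosen for a higher untreated mean in these same mice. Such a choice favours whichever untreated mouse departs most from the others, so the shares are a description and were not tested.

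Few other genes of these pathways carried a name in the files used here. Of 26 acute-phase genes listed, 2 were named, Lcn2 and Serpina3m. Of 15 genes for neutrophil and monocyte chemokines, their receptors and inducers, Cxcl1 alone was named. Of 15 early targets of NF-kB and STAT3, 2 were named, Lcn2 and Cxcl1. Lcn2 was the only named gene of 16 corticosteroid receptor genes and targets and of 9 lipocalin and iron-handling genes. All named members had lower means in treated mice and none passed the adjusted threshold; the authors chose them on these samples, so their direction is not independent evidence. The medians of the named members of the first 3 lists, which are 2, 1 and 2 of these same 3 genes, were -1.65, -1.89 and -2.0. The median over all probe sets was 0.032. Named rows are at least 2-fold apart, so a gap from that median was fixed by the listing and nothing is read from it.

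The cells behind these signals were not identified. None of 14 neutrophil markers and none of 9 macrophage markers was among the named probe sets, nor were fast-fibre, fibroblast or endothelial markers. Their levels were therefore not analysed here. The link of these genes to neutrophils or to the acute phase comes from known biology and not from these data. Cyp2e1, on a 7-gene liver list but made in fat as well, was the only named liver marker and had a higher mean in treated mice (2.01), the opposite of Serpina3m.

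Markers of slow fibres and fat were also among the listed genes. The 5 named of 8 slow-fibre markers had a summed linear signal of 1568 to 3450 in treated mice and 2930 to 25464 in untreated mice, with mouse 3 highest in each group. The 4 named of 10 adipocyte markers summed to 3320 to 11089 in treated mice and 1889 to 4087 in untreated mice. Both sums overlapped between the groups. The summed markers are those listed as 2-fold or more apart in these mice, so the direction in which each sum leans was set by that choice. A row shared by Myh6 and the slow-fibre marker Myh7 was also listed as lower but is not in the sum. The part of these sums in the differences of Cxcl1, Lcn2 and Serpina3m was not tested. Mbp, a myelin protein gene and the only named gene of 4 Schwann cell markers, had a lower mean in treated mice (-1.10) and, like Cxcl1, was highest in untreated mouse 3; its part was likewise not tested. Untreated mouse 2, with the highest Lcn2, had a slow-fibre sum of 9916 and the lowest adipocyte sum of all 6 mice, 1889.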

How the data were processed

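Gene expression was measured on 6 arrays, 1 per mouse, grouped by sample title. TRIzol-extracted RNA was DNase-treated and amplified linearly from 100 ng, per the labels' protocols. The deposited log2 values cover 45101 probe sets; Affymetrix Expression Console, Transcriptome Analysis Console and RMA, a method that as usually run corrects background, equalizes the arrays' distributions and compresses dim values, are named in the submitters' processing notes. Their settings and the array annotation are not given here. Per the file headers, the authors' table of 60 probe sets adds gene names, p-values, each group's geometric mean intensity and the fold change as a ratio; its log2 values differed from the full table by at most 0.00033.

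The 64 control probe sets were left out. Two-sided limma fits (version 3.58.1, R 4.3.3) were made on 45037 probe sets, with p-values adjusted by Benjamini-Hochberg over all of them at a threshold of 0.05, for treatment, sex with treatment as a term, and their interaction. The fits were tested on simulated data. The number of arrays limits the precision. Named genes are the 3 genes, the 3 named probe sets most like each, and named members of fixed lists; Entrez identifiers of all 3 matched RefSeq, and 2 of the 3 had a promoter window. The genes, lists and tests were chosen with earlier results of these data known. Alternatives were array scaling, array weights, covariates, variance models, a filter on dim probe sets and leaving out each mouse.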

Additional observations from a re-analysis of the deposited data

How the results depend on the processing

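The treatment difference of each of the 3 genes stayed negative under every alternative run. The genes were listed for this difference on the same arrays, so the sign was nearly fixed in advance. Each difference moved by less than the pooled SD between mice, a wide limit because the untreated mice spread so much. Within that limit, Serpina3m moved from -1.20 to -0.532 with the spike term. Leaving out single mice gave -2.67 to -1.24 for Lcn2, -2.35 to -1.31 for Cxcl1 and -1.83 to -0.785 for Serpina3m. The order of the 6 mice was the same for each gene after median centring, after quantile normalization and with the values of the authors' table. Counts over all probe sets moved more. At 2-fold or more there were 132 probe sets, 69 of them with an unadjusted p under 0.05. These became 200 and 154 with array weights, 64 and 39 with the spike term, and 94 to 522 and 42 to 429 when single mice were left out, with the highest counts without untreated mouse 1. The 69 became 16 by ordinary analysis of variance, which called 1 probe set where limma called 0, and 112 with the replicate number as a block; the block did not change the difference of any of the 3 genes. Same-numbered mice deviated together at correlations of 0.517, -0.082 and 0.183, so the numbers were not taken to pair the mice. Groups did not overlap for 6451 probe sets and for 3170 among the above-median probe sets, a filter that leaves fewer to count. Without single mice the number was 8871 to 16744. Leaving out a mouse can only raise this number, so nothing is read from the rise. The interaction with sex, with 0 calls, gave 106 with the spike term, where Cxcl1 passed (-2.21, limma adjusted p = 0.0464), and 0 to 5 without single males; it cannot be estimated without a female. Leaving out single males gave -2.64 to -2.01 for Cxcl1, 0.598 to 2.91 for Lcn2 and -2.18 to -0.079 for Serpina3m, and the lowest limma adjusted p was 0.113 for Cxcl1, 0.0929 for Lcn2 and 0.147 for Serpina3m. The female minus male difference changed sign for all 3 genes without untreated mouse 3 and for Serpina3m also without untreated mouse 1 (-0.439), with ranges over single mice of -0.561 to 1.76 for Cxcl1, -1.69 to 0.060 for Lcn2 and -0.473 to 0.656 for Serpina3m, and was -0.76 for Serpina3m with the spike term. The causes were not tested. Cxcl1 was not among the above-median probe sets, so that filter gave it no value.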
